A study of Mus musculus with 2 samples.

Results

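The genes described here encode the proteins of the cytosolic ribosome. They were taken from the RefSeq annotation of GRCm38.p6 (mm10) as the protein-coding genes named Rpl or Rps with a number and an optional letter, together with Rplp0, Rplp1, Rplp2 and Rpsa. Kinases named Rps6k and names ending in l, like or -ps were left out. This gave 76 genes of the 21631 protein-coding genes on chromosomes 1 to 19 and X, 46 of the large subunit and 30 of the small subunit. H3K36me2, dimethylated lysine 36 of histone H3, had been profiled in regulatory T (Treg) cells from the spleen of C57BL/6 mice. One library came from mice with a Treg conditional knockout of Nsd2, which encodes an H3K36 methyltransferase, and the other from wild-type mice. The labels give neither the Cre driver nor age, sex or pooling of the animals. With 1 library for each genotype, no difference below has a replicate error, and none was tested.

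A ribosome joins a small subunit, which reads the messenger RNA, to a large subunit, which forms the peptide bond, and its proteins are made in matched amounts. In mammals most of their genes are short and strongly transcribed in all cells, and their messengers begin with a tract of pyrimidines that places translation under mTOR. T cells that become activated enlarge their ribosome pool before they divide. H3K36me2 is placed by NSD1, NSD2, NSD3 and ASH1L. It spreads over intergenic chromatin and parts of gene bodies, while H3K36me3 marks strongly transcribed bodies.

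Promoter sequences are shown for 7 ribosomal protein genes, chosen to show the patterns of called regions at gene starts. Each runs from 150 bases before the annotated start and is 170 bases long, 5′ to 3′ on the strand of the gene, as RefSeq gives it for GRCm38.p6. Capitals mark the longest run of C and T between 50 bases before the start and 20 bases from it onward, or the first of them where runs tie in length, as in Rpl12. The start of Rpl37 (chr15:5116463-5116632, plus strand) lay inside a region of each library. The start of Rps25 (chr9:44407564-44407733, plus strand) lay inside a knockout region, and a wild-type region ended just before the printed bases. Rpl10a (chr17:28328321-28328490, plus strand) and Rps23 (chr13:90922972-90923141, plus strand) had only a knockout region there, and Rpl12 (chr2:32961562-32961731, plus strand) and Rpl39 (chrX:37085203-37085372, minus strand) only a wild-type region. Rps6 (chr4:86857348-86857517, minus strand), with no region in either library, is shown for comparison.
Rpl37: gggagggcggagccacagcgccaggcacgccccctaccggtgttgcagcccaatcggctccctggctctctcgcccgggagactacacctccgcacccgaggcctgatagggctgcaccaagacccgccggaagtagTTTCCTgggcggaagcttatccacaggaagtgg
Rps25: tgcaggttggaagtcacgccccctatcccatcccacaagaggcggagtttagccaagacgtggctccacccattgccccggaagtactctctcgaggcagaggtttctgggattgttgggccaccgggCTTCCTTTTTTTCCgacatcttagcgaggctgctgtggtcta
Rpl10a: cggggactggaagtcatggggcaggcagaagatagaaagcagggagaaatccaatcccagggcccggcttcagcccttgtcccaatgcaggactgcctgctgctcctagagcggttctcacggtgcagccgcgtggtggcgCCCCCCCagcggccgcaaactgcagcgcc
Rps23: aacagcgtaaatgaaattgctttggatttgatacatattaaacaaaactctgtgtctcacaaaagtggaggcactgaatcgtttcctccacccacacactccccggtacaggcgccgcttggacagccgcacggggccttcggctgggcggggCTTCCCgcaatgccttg
Rpl12: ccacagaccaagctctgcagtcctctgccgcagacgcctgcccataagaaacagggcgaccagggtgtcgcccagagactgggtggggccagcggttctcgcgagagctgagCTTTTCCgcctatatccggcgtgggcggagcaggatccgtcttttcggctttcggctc
Rpl39: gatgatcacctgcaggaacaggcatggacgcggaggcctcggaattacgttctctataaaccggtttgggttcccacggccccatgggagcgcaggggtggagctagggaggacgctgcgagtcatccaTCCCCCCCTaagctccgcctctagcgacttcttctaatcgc
Rps6: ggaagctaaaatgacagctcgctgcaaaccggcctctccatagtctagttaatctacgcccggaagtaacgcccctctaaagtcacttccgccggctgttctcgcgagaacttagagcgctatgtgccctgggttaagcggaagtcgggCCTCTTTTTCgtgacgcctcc

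Promoter entries of 300 bases, of which 250 precede the start, were matched for 56 of the 76 genes. Between 50 bases before and 20 after the start, 30 of the 56 had a run of at least 8 pyrimidines (53.6%), against 27.4% of the 17274 coding genes with an entry. Among the printed genes the longest run had 14 bases in Rps25, 10 in Rps6, 9 in Rpl39, 7 in Rpl10a and Rpl12, and 6 in Rpl37 and Rps23. The annotated start need not be the base at which transcription begins, so these runs describe letters and not the messengers' first bases. The letters CCGGAAG, a core bound by Ets family factors, were found on either strand in 22 of the 56 promoters (39.3%) and in 12.1% of all promoters. AAGATGGC, a core of the YY1 site, was found in 5 (8.93%) and in 3.23%, and TATAAA, the TATA box, in 6 (10.7%) and in 13.4%. None of these 3 motifs contains another. A match does not show that a factor binds.

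The deposited data were lists of regions called in each library alone, so the measure of a gene is the part of its window inside called regions. A window was the gene body with 5 kb on either side, and its covered share is the percentage of its base pairs inside regions. The knockout library had 14789700 tags and 39745 regions, and the wild-type library had 17158154 tags and 54527 regions. The lowest peak score in the lists, 12 in the knockout and 13 in wild type, equals the caller's tag threshold, and weaker signal was not called. Scaled to 10000000 tags, the threshold was higher in the knockout, at 8.11, than in wild type, at 7.58. The tag count of a region is a separate value that can lie below the threshold. The window of Nsd2 held 1825 bp of regions in the knockout and 1279 bp in wild type, which says nothing of the deletion, since the mark was measured and not the exon. All 9 T cell markers had regions in both libraries, with 40.5% of base pairs covered in the knockout and 39.96% in wild type. Of 6 Treg markers, 5 had regions in both, with 20.6% and 18.99% covered, and Ctla4 had none in either. The windows of 6 B cell markers were covered to 2.23% in the knockout and 3.39% in wild type, those of 6 myeloid markers to 3.32% and 2.64%, those of 6 NK and CD8 T cell markers to 1.13% and 4.41%, and those of 5 erythroid markers to 0.52% and 0.80%. The part of other cell types in the results was not tested.

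H3K36me2 regions were called at about as many ribosomal protein genes in one genotype as in the other. In the knockout 41 of the 76 windows held a region (53.9%, exact binomial 95% interval 42.1 to 65.5), and in wild type 39 did (51.3%, 39.6 to 62.96). Intervals on counts of genes or regions treat them as independent draws and hold no replicate error. Intervals on tags cover counting error only, since tags are PCR reads without molecular identifiers. Among all coding genes 48.9% held a knockout and 53.4% a wild-type region, and among the 7137 other coding genes between 982 and 11774 bp, the lengths of the shortest and longest ribosomal protein genes, 40.4% and 42.2%. Lengths inside this range were not matched, with a median body of 3169.5 bp in ribosomal protein genes and 5271 bp in the other genes. Another coding gene lay in 58 of the 76 windows (76.3%), against 53.9% in that length range. In the 3848 windows of the length range with such a neighbour, 56.6% held a knockout and 58.1% a wild-type region. The shares of ribosomal protein genes lay between those of the length range and of its windows with a neighbour.

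Covered length was larger in the knockout over ribosomal protein genes and smaller over coding genes as a whole. Summed over windows, knockout regions took 48653 bp and wild-type regions 40777 bp, 4.71% and 3.95% of base pairs, against 2.10% and 2.67% over all coding genes and 4.27% and 4.23% in the length range. The knockout length was thus 119% of the wild-type length, against 78.6% for all coding genes, 101% in the length range and 104% in its windows with a neighbour. By number there were 68 knockout and 67 wild-type regions, or 101% (exact binomial 95% interval 71.4 to 144). Over all of chromosomes 1 to 19 and X the knockout had 72.8% as many, which lies inside that interval. The interval treats regions as independent and holds no replicate error, so this is not a test. The surplus of length came in large part from chromosome 17, with Rpl10a, Rpl36, Rps2, Rps10, Rps18 and Rps28. Their windows held 11147 bp in the knockout and 5323 bp in wild type, and without them, a choice made after the values were seen, the percentage was 106%.

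**Figure D1:**
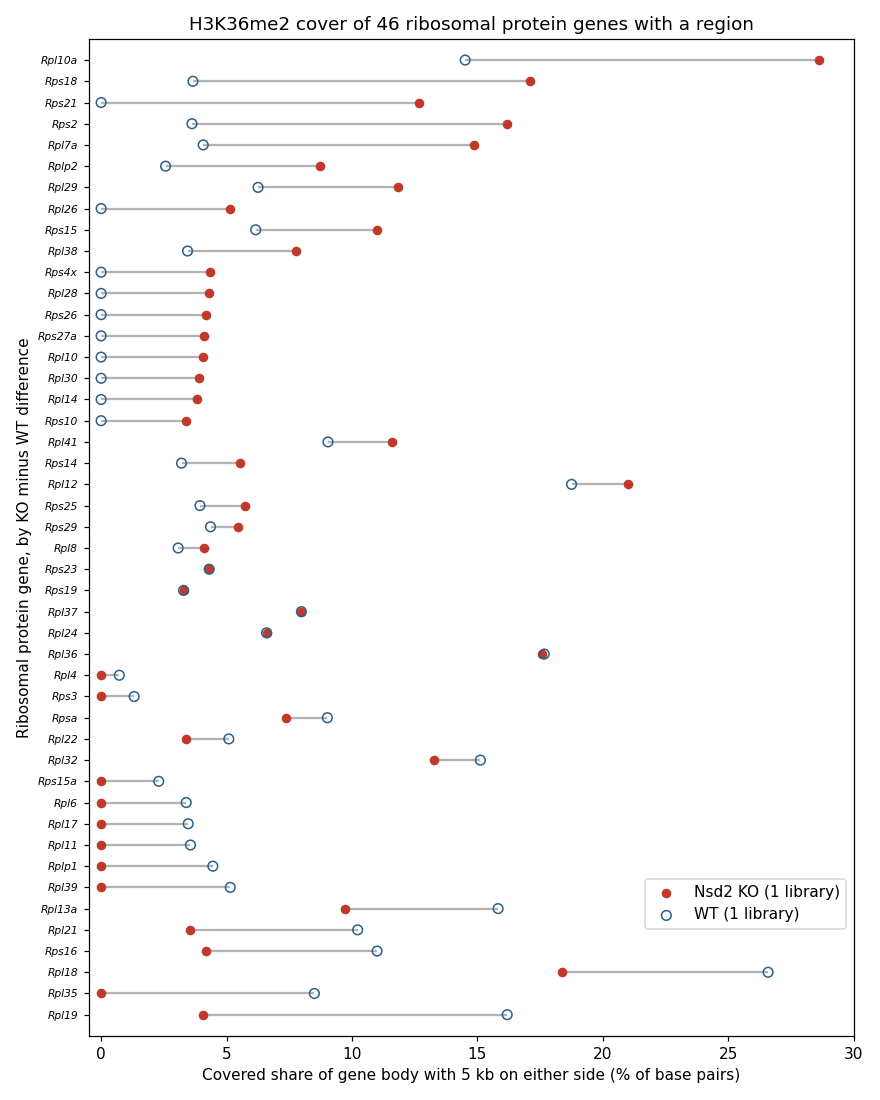
Covered share of the window (gene body with 5 kb on either side, percent of base pairs) for 46 of the 50 ribosomal protein genes with a region in either library, ordered by the difference. Filled red points are the Nsd2 knockout library and open blue points the wild-type library; Rpl10a, with 28.6% in the knockout and 14.5% in wild type, is at the top and Rpl19, with 4.07% in the knockout and 16.2% in wild type, at the bottom.

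Gene by gene, the covered share was larger in the knockout for 28, smaller for 18 and equal for 30, of which 26 had no region at all. The share was larger in 36.8%, against 22.8% of all coding genes, 24.3% of the length range and 34.3% of its windows with a neighbour. It was smaller in 23.7%, against 36.1%, 25.2% and 32.6%. Regions of both libraries lay in 30 windows, against 40.7% of all coding genes, 30.8% of the length range and 45% of its windows with a neighbour, and 39.5% here. Knockout regions alone lay in 11 windows (14.5%), against 8.15%, 9.58% and 11.6%. Wild-type regions alone lay in 9 (11.8%), against 12.6%, 11.4% and 13%, and neither in 26 (34.2%), against 38.5%, 48.2% and 30.3%. By a rule of size, a difference of 10 percentage points or more, 6 genes had the larger share in the knockout (7.89%, 2.95 to 16.4), against 1.53% of all coding genes, 3.53% of the length range and 5.56% of its windows with a neighbour. The smaller share by that much was seen in 1 gene (1.32%), against 1.61%, 3.19% and 4.68%. All 7 genes past 10 points had another coding gene in the window, as had 58 of all 76 ribosomal protein genes (76.3%). In the length range, 214 of the 252 genes larger by that much and 180 of the 228 smaller had one. The median difference was 0 points, as over all coding genes, and the mean was 0.97 points, against -0.35 over all coding genes and 0.04 in the length range.

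Many of the regions were short and near the threshold. Of the 68 knockout regions 32 were 500 bp long, the size of a single peak, and 11 were 1 kb or longer. Of the 67 wild-type regions 44 were 500 bp and 6 were 1 kb or longer. The median region held 9.80 tags in the knockout and 7.87 in wild type, each scaled to a library of 10000000 tags as throughout, against 9.13 and 8.74 over all regions. A region of the other library overlapped 25 knockout regions (36.8%, 25.4 to 49.3) and 26 wild-type regions (38.8%, 27.1 to 51.5), against 40.96% and 29.8% of all regions. Among those of 500 bp, 24 of 32 in the knockout and 29 of 44 in wild type had no counterpart. The same shares were not computed over all regions of 500 bp, so they cannot be read as particular to these genes. In 9 of the 11 windows with knockout regions alone, and in 8 of the 9 with wild-type regions alone, there was a single region.

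The stalk of the large subunit, which recruits the translational GTPases, is built from Rplp0, Rplp1 and Rplp2. Rplp0 had no region in either library. Rplp1 had none in the knockout and 1 of 500 bp with 7.29 tags in wild type, outside its body. Rplp2 was covered to 8.74% in the knockout and 2.57% in wild type. Both libraries had a region over Pidd1 at the upstream edge of its window, with 15.9 tags in the knockout and 12.8 in wild type, and the knockout had a further region of 774 bp downstream. Rpl12, at the base of the stalk, was among the 5 most covered genes, with 21.0% in the knockout and 18.8% in wild type. Regions upstream and downstream of Rpl12 were called in both libraries, while its body was reached only by 2 wild-type peaks of 500 bp, with 7.87 and 7.58 tags, the first of them over the promoter printed above.

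Rpl10a forms the other, mobile stalk of the large subunit. It had the largest covered share in the knockout and the largest difference, with 3593 bp in 4 knockout regions (28.6%) and 1823 bp in 3 wild-type regions (14.5%). A knockout region of 1910 bp (chromosome 17, 28326804 to 28328714 in mm10) lay over the printed promoter, with 31.4 tags (exact Poisson 95% interval 23.03 to 41.8), and no wild-type region overlapped it. Inside the body a region was called at nearly the same place in both libraries, with 11.2 tags in the knockout and 10.8 in wild type.

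Among small subunit genes the covered length was larger in the knockout, while among large subunit genes it was nearly equal. Small subunit windows held 19050 bp in the knockout and 10579 bp in wild type (4.73% and 2.62%), and large subunit windows 29603 bp and 30198 bp (4.70% and 4.79%). The knockout length was 180% of the wild-type length for the small and 98.0% for the large subunit, and 146% and 90.9% without chromosome 17. Of the 30 small subunit windows 18 held a knockout and 14 a wild-type region, and of the 46 large subunit windows 23 held a knockout and 25 a wild-type region. The difference between the subunits was not tested.

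Rps18, a protein of the head of the small subunit, held 2335 bp in 3 knockout regions (17.1%) and 500 bp in 1 wild-type region (3.66%). None touched its own body. The knockout regions overlapped Wdr46, B3galt4 and Vps52 and the wild-type region B3galt4 and Wdr46, and with the bodies of other coding genes left out the difference of 13.4 points turned to -1.91. Rps2, near the entry of the messenger channel, held 2234 bp in 3 knockout regions (16.2%) and 500 bp in 1 wild-type region (3.62%). The longest, 1076 bp with 17.6 tags, overlapped the neighbour Ndufb10 in the knockout. Rps21 held 1403 bp in the knockout (12.7%) and none in wild type. Its knockout regions overlapped Cables2, and the longer, of 1594 bp and 27.0 tags (19.3 to 36.8; chromosome 2, 180262541 to 180264135), reached beyond the window.

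Rps6, which the S6 kinases phosphorylate downstream of mTOR, had no region in either library, and neither had Rps7, Rps9, Rps12, Rps13, Rps20, Rps24, Rps27 and Rps28. Besides Rps21, knockout regions alone were found at Rps4x, with 625 bp, and at Rps10, Rps26 and Rps27a, with 500 bp each. Rps27a encodes a fusion with ubiquitin, and Rps10 and Rps26 are mutated in human Diamond-Blackfan anaemia. Wild-type regions alone were found at Rps15a, with 500 bp, and Rps3, with 208 bp. Those 208 bp, at the edge of the window of Rps3, belonged to a region of 1722 bp with 24.5 tags (17.7 to 33.1; chromosome 7, 99471381 to 99473103) that overlapped Klhl35 and shared 939 bp with knockout regions. Rps16 held 500 bp in the knockout, in its body, and 1321 bp in wild type, downstream. Rps15 held 1285 bp in the knockout and 720 bp in wild type. Rpsa, also known as a laminin receptor, held 1074 bp in the knockout (7.35%) and 1317 bp in wild type (9.02%), and shared a downstream region. Rps19 and Rps23 held 500 bp in each library, at different places. At Rps25 a knockout region of 730 bp and a wild-type region of 500 bp shared 410 bp.

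Rpl19, which forms a bridge between the subunits, was the 1 gene with a share smaller in the knockout by 10 points or more. Its window held 753 bp in 1 knockout region (4.07%) and 2993 bp in 5 wild-type regions (16.2%). The knockout region, over the neighbour Cacnb1, had 11.2 tags and shared 678 bp with a wild-type region of 1146 bp and 21.0 tags. The body of Rpl19 held none in the knockout and 1291 bp in wild type, in regions of 11.1 and 10.5 tags. Rpl35, at the exit of the peptide tunnel, held none in the knockout and 1152 bp in wild type (8.50%), downstream and overlapping Wdr38. Rpl39, which lines that tunnel, held none in the knockout and a region of 654 bp with 10.5 tags in wild type (5.15%), over the printed promoter. Rpl18 held 2823 bp in the knockout (18.4%) and 4086 bp in wild type (26.6%). Its window included part of the longest region at any ribosomal protein gene, a wild-type region of 3033 bp with 48.4 tags (38.6 to 59.996; chromosome 7, 45723941 to 45726974) that overlapped Fam83e and Spaca4 and no knockout region. In its own body Rpl18 held 1635 bp in the knockout and 629 bp in wild type, the reverse order. The knockout regions of 742 and 633 bp that reached this body also overlapped Sphk2, and that of 813 bp did not.

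Rpl13a, whose protein can also silence inflammatory messengers in human monocytes, was covered to 9.72% in the knockout and 15.8% in wild type. Downstream of it a knockout region of 782 bp with 15.6 tags lay inside a wild-type region of 2066 bp with 38.8 tags (30.04 to 49.3; chromosome 7, 45120082 to 45122148). That wild-type region shared 1117 bp with knockout regions in all, part of it outside the window, and with 10 kb on either side the difference of Rpl13a was 0.94 points, against -6.10. Rpl7a held 1876 bp in the knockout (14.9%) and 514 bp in wild type (4.07%), downstream and overlapping Surf1 and Surf2. Rpl36 was covered to 17.6% in the knockout and 17.7% in wild type, largely over Lonp1. Rpl21 was covered to 3.54% in the knockout and 10.2% in wild type, and Rpl29 to 11.8% and 6.25%. Rpl26 held 668 bp in its body in the knockout (5.15%) and none in wild type.

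Rpl11 and Rpl5 form a complex with a ribosomal RNA that can restrain Mdm2, the ubiquitin ligase of p53. Rpl11 held none in the knockout and 500 bp in wild type, downstream, and Rpl5 had no region in either. Rpl10, a protein joined late in assembly, held 500 bp upstream in the knockout (4.06%) and none in wild type. Rpl22, needed for development of alpha-beta T cells in mice, held 665 bp in its body in the knockout and 1000 bp outside it in wild type. Rpl38, needed for translation of Hox messengers in mouse embryos, had a body peak in both libraries, with 8.45 tags in the knockout and 7.29 in wild type. Knockout regions alone were also found at Rpl14, Rpl28 and Rpl30, with 500 bp each. Wild-type regions alone were also found at Rpl6 and Rpl17, with 500 bp each, and at Rpl4, with 110 bp. Large subunit genes without a region were, besides Rplp0 and Rpl5, Rpl3, Rpl7, Rpl9, Rpl13, Rpl15, Rpl23, Rpl23a, Rpl27, Rpl27a, Rpl31, Rpl34, Rpl35a, Rpl36a and Rpl37a. Rpl37 and Rpl24 held 1000 bp in each library. Rpl8, Rpl32, Rpl41, Rps14 and Rps29 had regions in both, with 376 to 2000 bp in a library.

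Pooled over the 76 genes, bodies were less covered than flanks. Bodies were covered to 3.88% in the knockout and 2.59% in wild type, and flanks to 5.01% and 4.44%. In the length range the order was reversed, with 4.90% and 4.89% of bodies and 3.92% and 3.86% of flanks. A region reached the body of 22 genes in the knockout (28.9%, 19.1 to 40.5) and of 15 in wild type (19.7%, 11.5 to 30.5). Among all coding genes 40.6% of bodies held a knockout and 44.4% a wild-type region, in the length range 26.8% and 27.7%, and in its windows with a neighbour 38.1% and 39.2%. Of the bodies, 7 were reached in both libraries, 15 in the knockout alone and 8 in wild type alone. This split was not counted for other genes, so it cannot be read as particular to ribosomal protein genes. Bodies of other coding genes made up 26.4% of the windows and held 38.7% of the covered base pairs in the knockout and 38.98% in wild type. Outside all coding bodies the windows were covered to 3.95% in the knockout and 3.66% in wild type. In the 18 windows with no other coding gene, bodies were covered to 3.78% and flanks to 1.51% in the knockout, the opposite order, and to 1.79% and 2.89% in wild type.

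**Figure D2:**
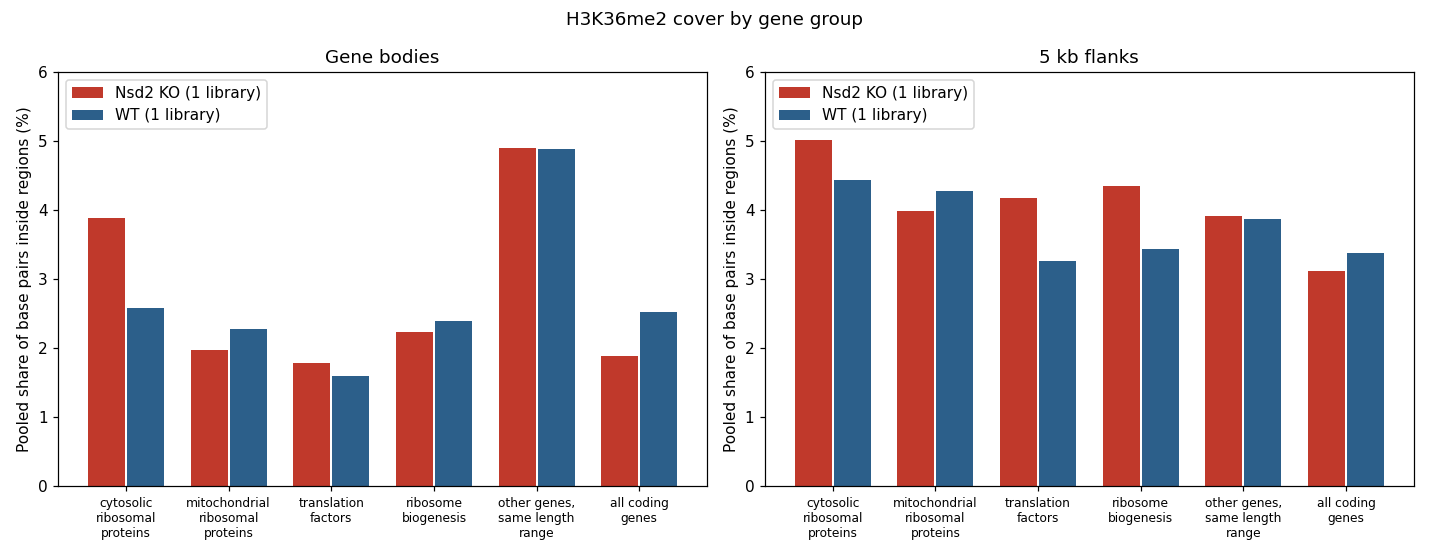
Pooled share of base pairs inside regions (percent) in gene bodies, left, and in 5 kb flanks, right, for 6 gene groups; red bars are the Nsd2 knockout library and blue bars the wild-type library. Cytosolic ribosomal protein genes had 3.88% of bodies and 5.01% of flanks covered in the knockout, and 2.59% and 4.44% in wild type.

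Ribosomal protein genes share 2 further features. They host small nucleolar RNA genes, with 58 in 29 of the 76 bodies (38.2%), against hosts among 0.546% of the length range. The windows of the 29 hosts were covered to 4.998% in the knockout and 4.67% in wild type, and those of the other 47 to 4.53% and 3.50%. They also have many processed copies, and the labels and headers do not say how reads matching several places were treated. In the annotation 62 of the 76 had pseudogenes named after them, 315 in all. Bodies of these 62 were covered to 4.74% in the knockout and 3.18% in wild type, and bodies of the other 14 to 0.14% and 0%. Among those 14, a region reached 1 body in the knockout. Whole windows differed too, with 5.19% in the knockout and 4.35% in wild type for the 62, and 2.59% and 2.17% for the 14. Body values are uncertain because the treatment of such reads is not known, and the part of processed copies in the results was not tested.

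Around the start, the bins of ribosomal protein genes lay on both sides of those of other genes in their length range. Lengths inside that range were not matched, and ribosomal protein genes were shorter at the median. In the first kb of the 56 genes with a known strand, 2.31% of base pairs were covered in the knockout and 2.14% in wild type, against 6.08% and 5.40% over 5689 genes of the length range. From 1 to 2 kb the covered part was 7.28% in the knockout and 4.83% in wild type, against 5.48% and 5.34%. The share of genes with any base of a region in the first kb was 7 of 56 in each library (12.5%) against 13.5% and 12.7%. A region touched the promoter of 4 of the 56 in the knockout (7.14%, 1.98 to 17.3) and of 6 in wild type (10.7%, 4.03 to 21.9), against 10.2% and 9.79% of the length range. Upstream flanks were covered to 3.43% in the knockout and 3.11% in wild type, and downstream flanks to 6.00% and 5.32%. Each bin holds regions of 1 to 8 of the 56 genes, too few to read single bins.

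**Figure D3:**
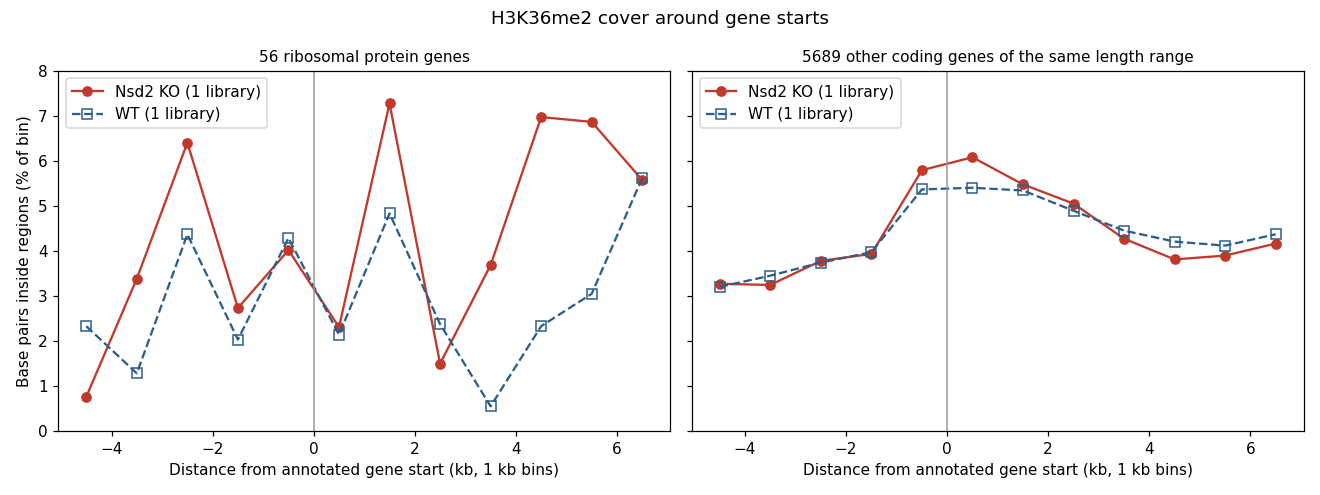
Base pairs inside regions (percent of each 1 kb bin) by distance from the annotated gene start in kb, for 56 ribosomal protein genes, left, and 5689 other coding genes of the same length range, right; red circles are the Nsd2 knockout library and blue squares the wild-type library. In the first kb the ribosomal protein genes had 2.31% in the knockout and 2.14% in wild type, and the other genes 6.08% and 5.40%.

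Other genes of protein synthesis were set beside them. The 78 mitochondrial ribosomal protein genes held a region in 43 windows in the knockout and 41 in wild type, with 50971 bp and 56414 bp, so that the knockout length was 90.4% of the wild-type length. Mrpl54 was covered to 54.0% in the knockout and 14.5% in wild type, and Mrpl34 to 31.0% and 11.4%. In the other direction Mrpl58 was covered to 7.04% in the knockout and 22.4% in wild type, and Mrpl36 to 3.66% and 17.5%. The share was larger in the knockout for 21 of the 78 and smaller for 29. Of 45 translation factors, 29 windows held a knockout and 20 a wild-type region, with 119.5% of the wild-type length. Eif4a1, a helicase that unwinds messenger leaders, was covered to 27.3% in the knockout and 0% in wild type, and Eef2, the translocation factor, to 33.8% and 20.02%. Eif6, which keeps the subunits apart, was covered to 7.20% in the knockout and 18.3% in wild type. Of 38 ribosome biogenesis genes, 19 windows held a knockout and 23 a wild-type region, with 106% of the wild-type length. Bysl, needed for small subunit assembly, was covered to 25.8% in the knockout and 11.9% in wild type, and Nop2, a methyltransferase of ribosomal RNA, to 10.9% and 2.19%. Across the 38, the share was larger in the knockout for 12 and smaller for 14. Of 26 genes of mTOR signalling and growth, 20 windows held a knockout and 21 a wild-type region, with 82.0% of the wild-type length. Maf1, a repressor of RNA polymerase III, was covered to 24.1% in the knockout and 4.92% in wild type, and Tsc2, an inhibitor of mTOR, to 12.8% and 6.72%. Across the 26, the share was larger in the knockout for 9 and smaller for 11. Of 11 ribosomal protein genes outside the naming rule, 5 windows held a knockout and 6 a wild-type region. Rpl3l was covered to 23.0% in the knockout and 12.05% in wild type, and Rps3a1 to 0% and 7.71%. Differences between these lists were not tested.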

How the data were processed

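H3K36me2 regions of 1 knockout and 1 wild-type library of splenic Treg cells were analysed. Trim Galore, Bowtie2, Picard, HOMER, deepTools and mm10 are named, without versions, per the submitters' processing notes. The libraries were made with an in situ ChIP kit and a transposase index kit, per the labels' protocols. HOMER findPeaks ran in histone style on each library alone, with no control named, a peak size of 500 bp and a Poisson threshold of 0.001, and peaks were stitched into regions, per the file headers. The signal deposited by the authors is the tag count of a region scaled to 10000000 tags, so a change of the mark over the whole genome would not show. The peak caller's score, also from the authors, was used in 1 alternative. The deposited clonal fold change, a ratio, was not used.

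Covered base pairs were computed for all coding genes in Python 3.11.15 with numpy 2.4.6, pandas 2.3.3 and scipy 1.17.1 (matplotlib 3.10.9 for figures). An overlap was 1 bp or more. The code was checked on the wild-type list itself, with the regions at a drawn set of genes removed, which tests the code and not the results. Intervals are exact Clopper-Pearson or Poisson at 95%. The genes named were the 10 with the largest drop and the 10 with the largest rise in covered share, the 5 most covered, Rplp0, Rplp1, Rplp2, Rpsa, Rps6, Rpl10 and Rpl11, the 3 longest regions per library and the 2 largest differences of each other list; further genes with values were chosen after these were seen. Some genes are not reported here by name but stay in all counts. Members, lists and rule were chosen with earlier results of these data known. There were 12 alternative settings, and 1 more and the leaving out of chromosomes were added after the data were seen.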

Additional observations from a re-analysis of the deposited data

How the results depend on the processing

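No paired analysis was possible because each genotype had 1 library. Of the 13 alternative settings run, 12 could change the covered length of ribosomal protein genes, including the 1 added after the data were seen. All used the same 2 libraries, so they are not independent of each other. The covered length was larger in the knockout in 11 of these 12. With 10 kb on either side it was 99.98% of the wild-type length, against 119% as reported. It was largest, at 197.7%, when the shortest wild-type regions, of 500 bp, had to reach the scaled tag threshold of the knockout. This removes regions from wild type only, so it can move the value only upward, and all coding genes moved to 102% and the length range to 128%. With the same cut of 8.11 scaled tags in both libraries, a choice made after the data were seen, it was 171% (all coding genes 91.0%, length range 116%), and 155% without the 8 knockout regions exactly at the cut. With each chromosome left out in turn, a choice made after the data were seen, it ran from 105.8% without chromosome 17 to 129.3% without chromosome 7.

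The counts past 10 points given below have no background, since they were not made for other genes in these settings. In gene bodies alone, 11 genes had the larger and 6 the smaller share in the knockout by 10 points. There 22 genes held a knockout and 15 a wild-type region, and knockout regions were 152.9% of wild-type regions in number. With regions of at least 1000 bp, 10 windows held a knockout and 6 a wild-type region, the percentage was 183.3%, and 2 genes were larger and 3 smaller. Above the median tag count, 26 windows held a knockout and 22 a wild-type region, and above the median score 22 held a wild-type region and 2 genes were smaller. With the cut in wild type alone 23 windows held a wild-type region, the percentage was 206.1%, and 0 genes were smaller, and with the cut in both libraries 23 held a wild-type region and the percentage was 166.7%. With 2 kb on either side 2 genes were smaller, and with 10 kb, or with bodies of other coding genes left out, 3 were larger and 2 smaller. In that last setting Rps18 turned to -1.91 points. Smaller differences turned more often: Rpl18 in gene bodies (18.7), with 2 kb (14.5), above the median score (14.2) and with other bodies left out (5.81), Rps16 in gene bodies (24.9) and with 2 kb (8.32), and Rpl12 in gene bodies (-25.9), with 2 kb (-18.8), with 10 kb (-3.87), with near regions merged (-3.84) and with other bodies left out (-0.51). Rpl13a, Rpl36 and Rpsa also turned in some settings. The differences of Rpl10a (8.97 to 37.2 points), Rps2 (7.79 to 18.2) and Rpl19 (-15.2 to -6.20) kept their sign in all 13 settings run, while those of Rpl7a and Rps21 were 0 in 3 and 2. The cause was not tested. Depth hides peaks with a score under 12 in the knockout and 13 in wild type. Scaled to 10000000 tags, this limit was 8.11 in the knockout and 7.58 in wild type, so it was higher in the knockout. Most differences of a single gene rest on few regions near the limit.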
